A study of Bos taurus with 2 samples.

Results

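Clusters 4 and 5 are 2 of the 15 groups into which the authors' graph-based clustering divided cultured bovine satellite cells, and their comparison covered 3409 of the 19096 cells of the series. The members of each cluster were the cells whose UMI counts added up to the deposited average of that cluster for every gene, which gave 1768 cells in cluster 4 (909 in replicate 1 and 859 in replicate 2) and 1641 cells in cluster 5 (859 and 782). No treatment, genotype or time point separated the clusters. The cells came from the skeletal muscle of 1 male Holstein calf aged 2 weeks, had been grown for 1 week in DMEM with fetal bovine serum, and went into 2 droplet libraries, called replicates 1 and 2, that were prepared from the same cells. The spread between replicates is therefore that of library preparation and sequencing, and nothing here measures the spread between animals or cultures.

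Satellite cells are the stem cells of skeletal muscle, and in culture most of them divide as myoblasts. A dividing cell copies its DNA in S phase, after replication origins have been licensed in G1, and then passes through G2 into mitosis. Entry into mitosis is driven by cyclin A and cyclin B bound to the kinase CDK1, with the kinases PLK1 and AURKA as activators, and it goes with a wave of transcription under MYBL2 (B-MYB) and FOXM1. The question addressed was how far the 2 clusters differ in this G2 and M phase program, and which other genes differ between them.

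In droplet sequencing a random tag, the unique molecular identifier or UMI, marks each captured RNA molecule and lets it be counted. Replicates 1 and 2 held 145631299 and 137818568 UMIs over all cells, after the authors had combined them at equal mapped depth. Cells of cluster 4 held a median of 18477 and 19102 UMIs in replicates 1 and 2 and cells of cluster 5 a median of 14057 and 15028, a ratio of 1.31 and 1.27. The median number of genes detected was 4126 and 4216 in cluster 4 and 3513 and 3665.5 in cluster 5. Levels are given below as UMIs of a gene per 10000 UMIs of the cluster in 1 library, so that a larger total in cluster 4 does not by itself raise them, and less RNA per cell and a poorer capture cannot be told apart. A doublet score above a common threshold was found in 9.90% and 12.2% of the cells of cluster 4 and in 14.2% and 13.4% of those of cluster 5. The libraries shared 27 barcodes, and 10 cells of these clusters carried such a barcode.

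Among the genes called between the clusters, those higher in cluster 4 reached larger factors than those lower in it. Of the 11311 genes kept by a filter on low counts, 1036 (9.16%) were higher and 823 (7.28%) were lower in cluster 4, together 16.4%, at a Benjamini-Hochberg adjusted p under 0.05 in the quasi-likelihood test of edgeR, which compared 2 library sums with 2. Among the higher genes 257 were at least 1 apart on the log2 scale, 97 at least 2 and 16 at least 3, whereas 36 of the lower genes were at least 1 apart and 2 at least 2. The median log2 fold change was 0.52 over the higher genes, -0.33 over the lower genes and -0.01 over all genes tested. With the library added to the fit as a replicate block, here called the block, 1899 genes were higher and 2080 lower. The main fit had no library term, so library shifts shared by both clusters counted as spread. Counts of list members given below are to be read against all 11311 genes tested. Of these 9.16% were higher and 7.28% lower in the main fit, and 1899 and 2080 genes under the block. At an unadjusted p under 0.05 in the main fit, 1823 of them were higher and 1788 lower, and with DESeq2 599 and 420. With plain UMI totals in place of TMM factors 1220 and 687 were called. With replicate 1 left out 415 were higher and 221 lower, and with replicate 2 left out 421 and 247, in fits that took the spread from the sums of the 13 other clusters. The TMM factors of these fits also drew on the other clusters, and their median log2 fold change over all genes was -0.0397 and -0.0441. With all 15 clusters and both replicates in 1 fit it was -0.0431. A small shift in these fits does not by itself show that a value depends on the replicate left out. Where a pair of adjusted p-values is given below for the fits without replicates 1 and 2, each fit left out 1 library, in that order. Because the clusters were themselves made from these counts, the p-values only compare a difference with the spread between libraries and do not show that the cells form separate groups. Each cell was also reassigned from a random part of its UMIs, and the remaining part was tested. This called 838 genes higher and 541 lower, and no gene called in both fits changed sign. The reassignment used profiles of the deposited clusters, which were made from all UMIs. It kept 87.9% of the cells of cluster 4 and 82.1% of those of cluster 5. The split therefore does not remove the dependence on the same counts.

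**Figure D1:**
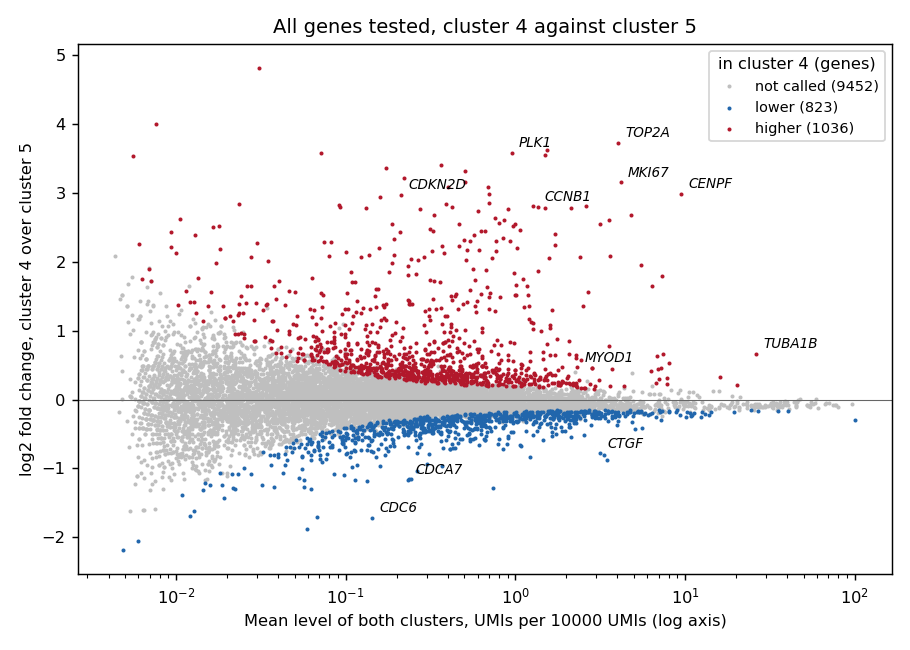
Each point is 1 of the 11311 genes tested, with the mean level of both clusters on a log axis in UMIs per 10000 UMIs and the log2 fold change of cluster 4 over cluster 5. Red points are the 1036 genes called higher in cluster 4, blue points the 823 called lower and grey points the rest; TOP2A, CENPF, MKI67 and PLK1 lie far above 0, whereas among the labelled lower genes CDC6 lies farthest below it.

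The kinases, cyclins and phosphatases of mitotic entry were higher in cluster 4 for 19 of 24 genes, where 9.16% of all genes tested were higher, and 1 was lower. Their median log2 fold change was 1.79 against -0.01 over all genes. CDK1, the kinase that drives entry into mitosis, was at 0.758 and 0.725 UMIs per 10000 in cluster 4 and 0.0942 and 0.116 in cluster 5, a log2 fold change of 2.80 ± 0.10 (SE, 2 libraries per cluster; adjusted p = 2.19e-06, edgeR). Both libraries of cluster 4 stood far above both libraries of cluster 5, 6.95-fold in the fit. Its partners differed in size. CCNB1, the B-type cyclin of mitotic entry, was at 2.38 and 2.36 UMIs per 10000 in cluster 4 and 0.363 and 0.303 in cluster 5, a log2 fold change of 2.80 ± 0.08. CCNA2, the cyclin of S and G2 phase, was at 1.26 and 1.34 UMIs per 10000 in cluster 4 and 0.217 and 0.193 in cluster 5, a log2 fold change of 2.64 ± 0.07. CCNB2, the second B-type cyclin, was at 1.67 and 1.59 UMIs per 10000 in cluster 4 and 0.645 and 0.610 in cluster 5, a smaller log2 fold change of 1.35 ± 0.06, and CCNB3 had 2.94 ± 0.13. PLK1, the polo-like kinase that activates CDK1 and acts on centrosomes and kinetochores, was at 1.76 and 1.77 UMIs per 10000 in cluster 4 and 0.155 and 0.133 in cluster 5, which is 12-fold higher in the fit. AURKA, the centrosomal kinase that activates PLK1, was at 1.68 and 1.61 UMIs per 10000 in cluster 4 and 0.279 and 0.285 in cluster 5, with its cofactor BORA at a log2 fold change of 2.03. CDC25B and CDC25C, the phosphatases that remove the inhibitory phosphate groups from CDK1, rose by 1.53 and 1.55 on the log2 scale.

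The kinases that oppose CDK1, WEE1 and PKMYT1, changed less than the activators above, and other members of the list are given after them. WEE1, the kinase that places an inhibitory phosphate on CDK1, was at 0.321 and 0.354 UMIs per 10000 in cluster 4 and 0.236 and 0.240 in cluster 5, a log2 fold change of 0.48 ± 0.08 (adjusted p = 0.0069, edgeR), and the change was 0.51 without replicate 1 (adjusted p = 0.079) and 0.38 without replicate 2 (adjusted p = 0.22). PKMYT1, a related membrane-bound kinase, differed by 0.05 (adjusted p = 0.71). CDC25A, the phosphatase that acts at the G1/S transition as well, was the lower gene of the list, at 0.112 and 0.104 UMIs per 10000 in cluster 4 and 0.164 and 0.172 in cluster 5, a log2 fold change of -0.66 ± 0.10, which became -0.78 without replicate 1 (adjusted p = 0.045) and -0.62 without replicate 2 (adjusted p = 0.12). MASTL, the Greatwall kinase that keeps the phosphatase PP2A in check during mitosis, rose by 1.15, but was not called with a library left out (adjusted p = 0.1 and 0.45 without replicates 1 and 2). Its small substrates ARPP19 and ENSA differed by 0.03 and 0.29 and did not pass the test (adjusted p = 0.22, and 0.034 with the block, for ENSA).

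**Figure D2:**
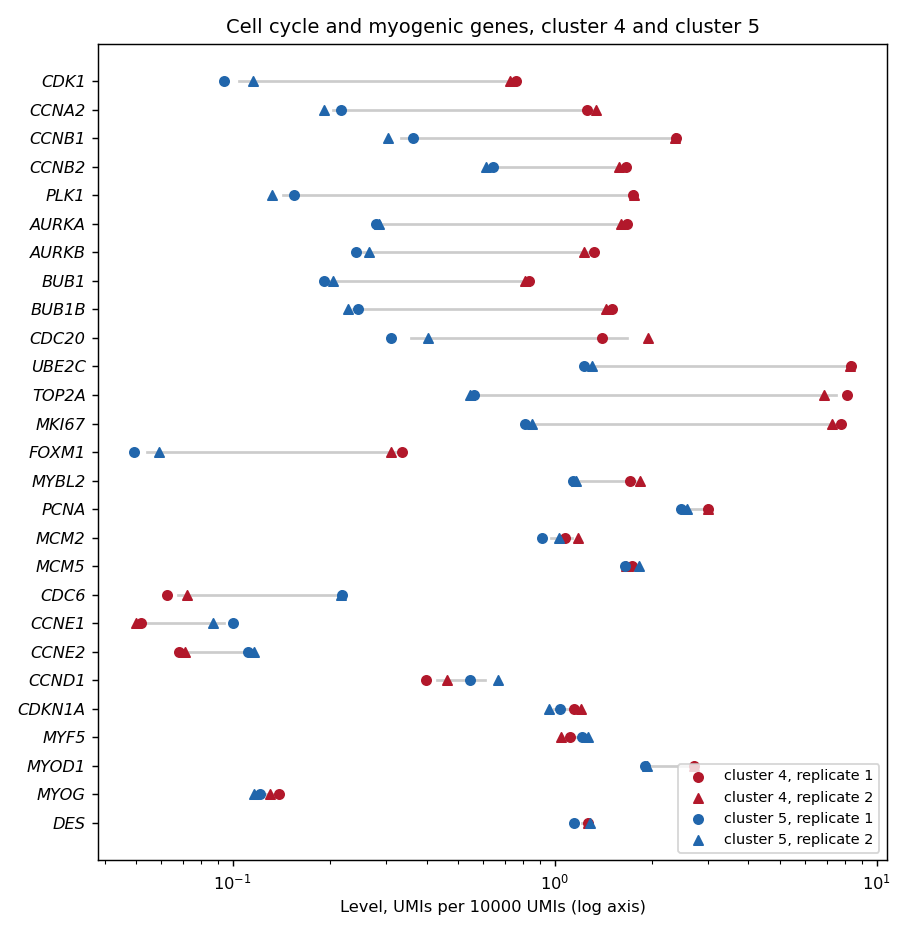
The level of 27 cell cycle and myogenic genes, in UMIs per 10000 UMIs on a log axis, is shown for each library of cluster 4 (red) and cluster 5 (blue), with circles for replicate 1 and triangles for replicate 2 and a grey line between the cluster means. The genes from CDK1 to FOXM1 are well separated, with CCNB2 the closest of them, MCM2, MCM5 and DES lie close together, and CDC6, CCNE1 and CCNE2 lie further left in cluster 4.

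Of the transcription factors behind the G2/M program, FOXM1 had the largest difference. It was at 0.335 and 0.310 UMIs per 10000 in cluster 4 and 0.0495 and 0.0591 in cluster 5, a log2 fold change of 2.55 ± 0.11 (adjusted p = 8.46e-06, edgeR). MYBL2, which opens the same promoters earlier in the cycle, was at 1.71 and 1.83 UMIs per 10000 in cluster 4 and 1.14 and 1.16 in cluster 5, a log2 fold change of 0.60 ± 0.05. Of the subunits of the MuvB core, which recruits either the repressive DREAM partners or MYBL2, LIN9 and LIN54 rose by 0.80 and 0.43, and LIN37 and LIN52 differed by 0.20 and 0.35 without passing the test (for LIN52, adjusted p = 0.097, and 0.033 with the block). RBL1 and RBL2, the pocket proteins of the repressive form, rose by 0.42 and 0.42. Without replicates 1 and 2 the adjusted p was 0.56 and 0.35 for RBL1, 0.41 and 0.2 for RBL2, 0.23 and 0.24 for LIN54 and 0.045 and 0.12 for LIN9. In all, 6 of 14 tested genes of this list were higher and none was lower, with 10 higher under the block, 3 with DESeq2, and 3 and 2 without replicates 1 and 2. No gene was lower at an unadjusted p under 0.05 or with DESeq2. The median of the list was 0.28.

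The spindle checkpoint and the kinetochore, the protein assembly that ties chromosomes to spindle fibres, were higher almost throughout. In this list 41 of 44 genes were higher and none was lower, with a median log2 fold change of 1.35. At an unadjusted p under 0.05, 43 were higher, and with DESeq2 38, again with none lower. CENPF, an outer kinetochore protein, was at 17.2 and 16.4 UMIs per 10000 in cluster 4 and 2.07 and 2.10 in cluster 5, a log2 fold change of 2.99 ± 0.05 (adjusted p = 4.03e-07, edgeR). The checkpoint kinases BUB1 and TTK rose by 2.02 and 2.84, and BUB1B, which holds back the anaphase-promoting complex, was at 1.51 and 1.44 UMIs per 10000 in cluster 4 and 0.245 and 0.229 in cluster 5. Of the NDC80 complex, which binds the microtubule, NDC80, SPC25 and NUF2 rose by 2.73, 2.13 and 1.51. SPC24, the remaining member, was at 7.90 and 7.75 UMIs per 10000 in cluster 4 and 6.43 and 6.10 in cluster 5, a log2 fold change of 0.29, which became 0.29 without replicate 1 (adjusted p = 0.031) and 0.23 without replicate 2 (adjusted p = 0.099). HJURP, the chaperone that loads the centromeric histone, rose by 3.16 and the centromeric histone CENPA itself by 1.49. The members that were not called were MAD1L1 (0.13), CENPQ (0.24, adjusted p = 0.15, and 0.0097 with the block) and MAD2L1 (1.14, adjusted p = 0.093, and 0.032 with the block), of which 44 and 14 UMIs were counted in clusters 4 and 5.

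The chromosomal passenger complex, which corrects wrong attachments and later guides cell division, rose in all 4 subunits. Its scaffold INCENP was at 0.292 and 0.335 UMIs per 10000 in cluster 4 and 0.0298 and 0.0295 in cluster 5, a log2 fold change of 3.37 ± 0.12. CDCA8, AURKB and BIRC5 rose by 3.10, 2.31 and 1.35. The anaphase-promoting complex, the ubiquitin ligase that ends mitosis, had, with its activators, inhibitors and targets, 10 of 21 genes higher and 1 lower, the replication inhibitor GMNN. Its ubiquitin-conjugating enzymes UBE2C and UBE2S rose by 2.68 and 1.65, its mitotic activator CDC20 by 2.21, the cohesin-cutting ESPL1 (separase) by 2.67 and its inhibitor FBXO5 by 1.21. Of its core subunits ANAPC2, ANAPC10, CDC27 and CDC23 rose by 0.39, 0.42, 0.67 and 0.96, and the other core subunits measured lay between -0.12 and 0.60 and did not pass. Without replicates 1 and 2 the adjusted p was 0.094 and 0.06 for ANAPC2 and 0.16 and 0.2 for ANAPC10. CDC20 varied between the libraries: it was at 1.41 and 1.96 UMIs per 10000 in cluster 4 and 0.310 and 0.405 in cluster 5, so that replicate 2 was the higher library in both clusters, and its standard error was 0.17 against 0.05 for UBE2C.

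Of 31 tested kinesins and associated genes 16 were higher, 18 under the block, and the 12 with the largest changes, from KIF22 at 1.84 to KIF23 at 3.09, were all genes known for mitosis or cytokinesis. KIF5B, a kinesin of organelle transport, was at 7.45 and 7.21 UMIs per 10000 in cluster 4 and 6.21 and 5.99 in cluster 5, a log2 fold change of 0.24 that became 0.21 without replicate 1 (adjusted p = 0.4) and 0.19 without replicate 2 (adjusted p = 0.42). No kinesin was called lower by edgeR or DESeq2, 2 were lower at an unadjusted p under 0.05 and 2 under the block. Among spindle and centrosome proteins 25 of 30 were higher, with a median of 1.26. NUSAP1, which bundles microtubules around chromosomes, was at 2.92 and 2.75 UMIs per 10000 in cluster 4 and 0.241 and 0.208 in cluster 5, a log2 fold change of 3.63 ± 0.08. ASPM, which organises spindle poles, was at 2.81 and 2.69 UMIs per 10000 in cluster 4 and 0.245 and 0.216 in cluster 5, and TPX2, which activates AURKA on the spindle, at 6.45 and 5.91 UMIs per 10000 in cluster 4 and 0.999 and 0.989 in cluster 5. The augmin subunits divided, since HAUS4, HAUS5 and HAUS6 rose by 0.60, 0.53 and 0.44, while HAUS1, HAUS2, HAUS3, HAUS7 and HAUS8 lay between -0.29 and 0.14 and were not called, except HAUS8 under the block (adjusted p = 0.0013). Without replicates 1 and 2 the adjusted p was 0.067 and 0.074 for HAUS4, 0.11 and 0.079 for HAUS5 and 0.2 and 0.26 for HAUS6.

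For cytokinesis 10 of 17 genes were higher and 1 was lower, with a median of 1.53, and 10 and 2 under the block. PRC1, which bundles the central spindle, was at 3.83 and 3.65 UMIs per 10000 in cluster 4 and 0.557 and 0.511 in cluster 5, and CIT, ECT2 and KIF14 rose by 2.10, 2.18 and 2.79. The septins and RHOA, which serve the cell cortex at all times, lay between -0.11 and 0.03 and none was called in the main fit. CHMP4B, a membrane-cutting ESCRT protein, was lower by a log2 fold change of -0.23, a call that was lost without replicate 2 (adjusted p = 0.096). Tubulins also differed by isotype. TUBB4B was at 11.7 and 11.2 UMIs per 10000 in cluster 4 and 3.31 and 3.15 in cluster 5, a log2 fold change of 1.80 ± 0.05, TUBA1B at 33.1 and 31.6 UMIs per 10000 in cluster 4 and 20.5 and 19.6 in cluster 5, a log2 fold change of 0.67, and TUBA1A, the alpha isotype known from neurons, at 15.5 and 15.2 UMIs per 10000 in cluster 4 and 14.3 and 13.4 in cluster 5, a log2 fold change of 0.12 that did not pass (adjusted p = 0.11, and 2.77e-08 with the block). TUBB, singled out after its values were seen, was at 1.62 and 3.54 UMIs per 10000 in cluster 4 and 1.2 and 2.64 in cluster 5, so that replicate 2 was 2.18 and 2.21 times replicate 1 in clusters 4 and 5. Its log2 fold change of 0.40 was not called without the block (adjusted p = 0.56) and was called with it (adjusted p = 2.12e-09).

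Chromosome structure genes were higher for 18 of 22, with none lower and a median of 0.97. At an unadjusted p under 0.05, 21 were higher, and with DESeq2 16, again with none lower. TOP2A, the topoisomerase that untangles sister chromatids, had the largest log2 fold change among the genes called at a mean level of at least 1 UMI per 10000. It was at 8.10 and 6.88 UMIs per 10000 in cluster 4 and 0.560 and 0.545 in cluster 5, a log2 fold change of 3.73 ± 0.09 (adjusted p = 5.28e-07, edgeR), 13.3-fold in linear terms. Its relative TOP2B, which is not tied to the cell cycle, was at 1.04 and 1.01 UMIs per 10000 in cluster 4 and 1.12 and 1.03 in cluster 5, a log2 fold change of -0.09 (adjusted p = 0.34). MKI67, which coats mitotic chromosomes, was at 7.78 and 7.28 UMIs per 10000 in cluster 4 and 0.808 and 0.852 in cluster 5. The condensin I subunits NCAPG, NCAPH and NCAPD2 rose by 1.87, 1.81 and 2.22, the condensin II subunits NCAPG2, NCAPH2 and NCAPD3 by 1.45, 0.73 and 1.32, and the shared subunits SMC2 and SMC4 by 0.85 and 1.57. In the cohesin ring RAD21, SMC1A and SMC3 rose by 1.09, 0.57 and 0.28, and the change of SMC3 was 0.19 without replicate 1 (adjusted p = 0.42) and 0.30 without replicate 2 (adjusted p = 0.12).

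In the nuclear envelope the B-type lamins and the chromatin-binding proteins of the inner membrane were higher. LMNB1 and LMNB2 rose by 0.89 and 1.27, LBR by 1.00 and TMPO by 1.12. In all 6 of 12 tested genes were higher and none was lower. At an unadjusted p under 0.05, 6 were higher, and with DESeq2 5, again with none lower. LMNA, the A-type lamin, was at 2.88 and 4.48 UMIs per 10000 in cluster 4 and 2.75 and 4.63 in cluster 5, again with replicate 2 as the higher library in both clusters, and its log2 fold change was -0.03 (adjusted p = 0.96). The high mobility group protein HMGB2 was at 8.77 and 8.74 UMIs per 10000 in cluster 4 and 2.19 and 2.25 in cluster 5, a log2 fold change of 1.95 ± 0.04, HMGB3 rose by 0.78, and HMGB1 was at 22 and 21.6 UMIs per 10000 in cluster 4 and 18.9 and 18.2 in cluster 5, a log2 fold change of 0.21 (adjusted p = 0.17 and 0.31 without replicates 1 and 2). HMGA1 was lower by a log2 fold change of -0.30, a call lost without replicate 1 (adjusted p = 0.25) and with DESeq2 (adjusted p = 0.23). Of 17 tested genes of that list 8 were higher and 2 lower, the latter 4 under the block. Over all genes tested 9.16% were higher and 7.28% lower. ASF1B, a histone chaperone, rose by 1.72.

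The clusters were made from these counts, so G2/M genes can describe the label of the comparison but cannot test it. A list of 54 G2/M genes was compared between the clusters. Of these, 53 were higher in cluster 4 and none was lower. At an unadjusted p under 0.05, 54 were higher, and with DESeq2 53, again with none lower. The gene not called in the main fit was CKS1B, at 0.0347 and 0.0478 UMIs per 10000 in cluster 4 and 0.0275 and 0.0263 in cluster 5 (adjusted p = 0.13, and 0.042 with the block). The list had a median log2 fold change of 2.22. Summed over the list, cluster 4 held 142.2 ± 4.2 UMIs per 10000 (SD, n = 2 libraries) and cluster 5 held 32.9 ± 0.25. Cluster 2 held 155.5 ± 3.54, the remaining clusters between 14.9 ± 0.03 (cluster 8) and 101.1 ± 7.11 (cluster 7), and cluster 12, in which MYOG was detected in 99.0% and 99.7% of the cells of replicates 1 and 2, held 24.8 ± 0.08. The difference between clusters 5 and 12 was not tested.

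Seen cell by cell, the list separated the clusters with a small overlap. Every cell was thinned at random to 10000 UMIs, which left 877 and 837 cells in cluster 4 and 815 and 748 in cluster 5 after 32, 22, 44 and 34 shallower cells had been set aside. The median cell of cluster 4 had 140 and 133 UMIs of the list in replicates 1 and 2, and the range from the 5th to the 95th percentile was wide, 67 to 242 and 67.8 to 229. The median cell of cluster 5 had 28 and 27, with 13 to 73 and 13 to 70. In cluster 5, 56 cells of replicate 1 (6.87%) and 46 of replicate 2 (6.15%) reached the 5th percentile of cluster 4, and in cluster 4, 8.10% and 6.45% lay at or under the 95th percentile of cluster 5. Cells of cluster 12 had a median of 20 in both libraries, and 22.9% and 23.0% of the cells of cluster 5 exceeded their 95th percentile. As the clusters were made from the same counts, these shares describe the groups and are no test.

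**Figure D3:**
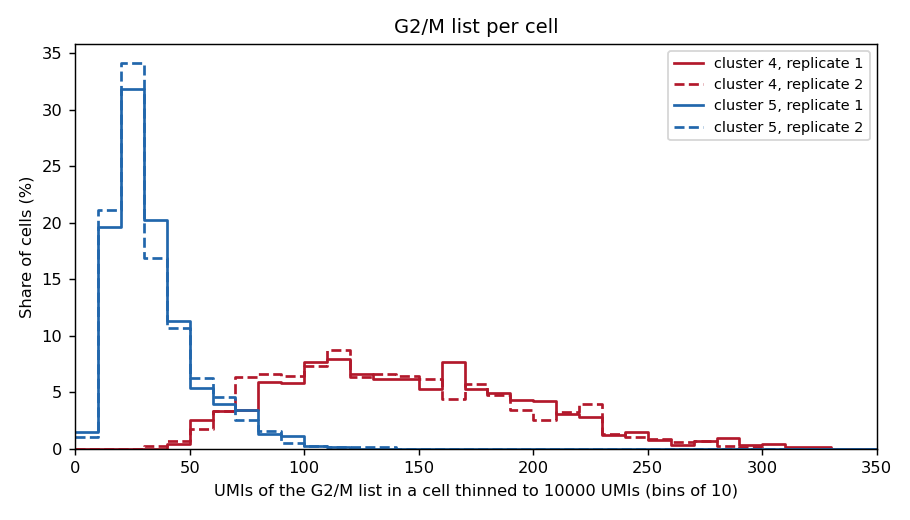
The share of cells is plotted against the UMIs of the G2/M list per cell after thinning to 10000 UMIs, in bins of 10, for cluster 4 (red) and cluster 5 (blue), with replicate 1 solid and replicate 2 dashed. The lines of the libraries run close together, cluster 5 peaks between 20 and 30 UMIs around medians of 28 and 27, and cluster 4 is broad around medians of 140 and 133.

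Among genes of DNA replication, origin licensing and firing had 3 genes higher and 3 lower of 25, near the shares of 9.16% and 7.28% among all genes tested, with a median of 0.02, and 8 and 7 under the block. CDC6, which loads the replicative helicase in G1, was at 0.0626 and 0.0724 UMIs per 10000 in cluster 4 and 0.218 and 0.217 in cluster 5, a log2 fold change of -1.72 ± 0.10 (adjusted p = 4.71e-05, edgeR), so that cluster 5 was 3.29-fold higher. ORC1, the origin subunit that cycles, was lower, with a log2 fold change of -0.57, and its call was lost without replicate 1 or 2 (adjusted p = 0.13 and 0.16) and with DESeq2 (adjusted p = 0.095). CDT1, the other loading factor, was rare, with 12 and 20 UMIs in clusters 4 and 5, and its log2 fold change of -1.22 ± 0.49 did not pass (adjusted p = 0.14, and 0.048 with the block). GMNN, which blocks CDT1 after licensing, was lower at -0.38, a change of -0.50 without replicate 1 (adjusted p = 0.0072) and -0.33 without replicate 2 (adjusted p = 0.09).

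The helicase itself differed little. MCM5 was at 1.74 and 1.67 UMIs per 10000 in cluster 4 and 1.65 and 1.83 in cluster 5, with overlapping libraries and a log2 fold change of -0.06 ± 0.06 (adjusted p = 0.57), and MCM2, MCM3, MCM4, MCM6 and MCM7 lay between -0.21 and 0.19 with none called. Under the block MCM2 was called higher (adjusted p = 5.24e-04) and MCM3 and MCM6 lower (adjusted p = 0.0013 and 0.002). Its activators differed more, since DBF4, the regulatory subunit of the origin-firing kinase, was at 1.09 and 1.05 UMIs per 10000 in cluster 4 and 0.300 and 0.267 in cluster 5, a log2 fold change of 1.88 ± 0.07, while the catalytic subunit CDC7 differed by 0.05 (adjusted p = 0.77). CDC45, a part of the active helicase, rose by 0.92.

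At the replication fork and in nucleotide synthesis 12 of 31 genes were higher and 5 lower, with 19 and 5 under the block and a median of 0.17. The shares over all genes tested were 9.16% and 7.28%. POLA1 and PRIM2 of the priming polymerase rose by 0.80 and 0.67, the latter not called without replicate 1 (adjusted p = 0.11), and RRM1, the large subunit of ribonucleotide reductase, was at 2.06 and 1.88 UMIs per 10000 in cluster 4 and 1.23 and 1.24 in cluster 5, a log2 fold change of 0.65. Among the lower genes were SLBP (-0.40), POLD2 (-0.29), CTPS1 (-0.25) and POLD3 (-0.21). Without replicates 1 and 2 the adjusted p was 0.015 and 0.1 for SLBP, 0.067 and 0.24 for POLD2, 0.22 and 0.31 for CTPS1 and 0.44 and 0.25 for POLD3. PCNA, the sliding clamp, was at 3.00 and 3.00 UMIs per 10000 in cluster 4 and 2.46 and 2.58 in cluster 5, a log2 fold change of 0.22 ± 0.04 (adjusted p = 0.017), which became 0.16 without replicate 1 (adjusted p = 0.37) and 0.22 without replicate 2 (adjusted p = 0.15). Repair by homologous recombination and the Fanconi genes had 14 of 26 genes higher and none lower, 20 and 2 under the block, with 2 lower at an unadjusted p under 0.05 and none with DESeq2. RAD51AP1, FANCD2, FANCI and BRCA1 rose by 1.32, 1.15, 1.10 and 0.71, whereas BRCA2 differed by -0.19 (adjusted p = 0.07, and 0.0018 with the block).

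The S phase list of 43 genes, in which 2 Ensembl genes carry the symbol ATAD2, had 18 genes higher and 9 lower, with 9 and 7 when replicate 1 was left out and 11 and 3 when replicate 2 was left out. The shares over all genes tested were 9.16% higher and 7.28% lower. The sum of the S phase list was 33.3 ± 0.60 UMIs per 10000 in cluster 4 and 29.1 ± 0.68 in cluster 5 (SD, n = 2 libraries). Within the list the changes were opposite. E2F8, RAD51AP1, BRIP1 and CDC45 had log2 fold changes of 1.39, 1.32, 0.92 and 0.92, and CDC6, CDCA7, DTL and CCNE2 had -1.72, -1.16, -0.97 and -0.73. BRIP1 was not called without replicate 1 (adjusted p = 0.15). In thinned cells the median was 32 UMIs in each library of cluster 4 and 26 and 28 in cluster 5, where the quartiles were 16 and 39 in replicate 1 and 18 and 40 in replicate 2. In cluster 12 the median was 6 in each library, and 80.6% and 82.1% of the cells of cluster 5 lay above the 95th percentile of cluster 12. Cluster 11 had medians of 46 and 44. The clusters overlapped widely on this list, since 80.6% and 84.6% of the cells of cluster 5 reached the 5th percentile of cluster 4.

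Of all genes tested 9.16% were higher and 7.28% lower, whereas among regulators of G1 and of the G1/S transition 11 of 24 were higher and 4 lower. The median of these regulators was 0.31. Under the block 16 were higher and 6 lower, with DESeq2 6 and 4, and after the reassignment of cells 6 and 3. The 4 genes called lower in the main fit were cyclins. CCNE1 was at 0.0518 and 0.0502 UMIs per 10000 in cluster 4 and 0.101 and 0.0870 in cluster 5, a log2 fold change of -0.90 ± 0.14 (adjusted p = 0.007, edgeR), and CCNE2, CCND3 and CCND1 had -0.73, -0.55 and -0.52. CCNE1 was not called without replicate 1 (adjusted p = 0.11), and CCNE2 was -0.77 without replicate 1 (adjusted p = 0.062) and -0.77 without replicate 2 (adjusted p = 0.06). Their kinase partners CDK2, CDK4 and CDK6 differed by -0.20, 0.15 and 0.47 without passing the test, and were called under the block (adjusted p = 0.016, 0.0013 and 0.019).

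Inhibitors of these kinases were higher in cluster 4. CDKN2D (p19), an inhibitor of CDK4 and CDK6, was at 0.394 and 0.361 UMIs per 10000 in cluster 4 and 0.0542 and 0.0394 in cluster 5, a log2 fold change of 2.98 ± 0.14 (adjusted p = 1.03e-05, edgeR). CDKN2C (p18), of the same family, was at 0.870 and 0.913 UMIs per 10000 in cluster 4 and 0.221 and 0.248 in cluster 5, a log2 fold change of 1.90 ± 0.07. CDKN1C (p57) was at 1.59 and 1.77 UMIs per 10000 in cluster 4 and 0.685 and 0.775 in cluster 5 and CDKN1B (p27) at 0.264 and 0.275 UMIs per 10000 in cluster 4 and 0.147 and 0.148 in cluster 5, log2 fold changes of 1.18 and 0.84. CDKN1A (p21), the inhibitor induced by p53, was at 1.15 and 1.21 UMIs per 10000 in cluster 4 and 1.04 and 0.958 in cluster 5, a log2 fold change of 0.21 ± 0.06 with an adjusted p of 0.048 that was lost with DESeq2 (adjusted p = 0.12), and was 0.27 without replicate 1 (adjusted p = 0.3) and 0.08 without replicate 2 (adjusted p = 0.83). The repressors E2F7 and E2F8 rose by 0.81 and 1.39 and RB1 by 0.52, of which E2F7 (adjusted p = 0.12 and 0.25 without replicates 1 and 2) and RB1 (adjusted p = 0.079 without replicate 2) were not called with a library left out, while E2F1 differed by 0.09 (adjusted p = 0.66).

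The share of thinned cells with at least 1 UMI showed how widely these transcripts were spread, with exact binomial intervals that cover counting error only. Cluster 12, the MYOG-positive cells, served as the background, at median depths of 18889 and 19332 UMIs before thinning. TOP2A was found in 93.5% and 91.6% of the cells of cluster 4, in 34.7% and 35.2% of cluster 5 and in 12.3% and 13.5% of cluster 12. CCNB1 was found in 81.1% and 81.4%, 25% and 25% and 8.33% and 6.06%, and PLK1 in 74.3% and 73.0%, 14.2% and 10.4% and 6.0% and 7.07%. For PLK1 the interval of cluster 5 in replicate 2, 8.33 to 12.8%, overlapped that of cluster 12, 4.43 to 10.6%, whereas for TOP2A the intervals of both libraries were apart. CDK1 was found in fewer cells, 49.8% and 46.2% of cluster 4 and 9.20% and 10.3% of cluster 5 against 3.67% and 1.35% of cluster 12. Without thinning the shares of TOP2A were 94.7% and 94.1% in cluster 4, 43.9% and 44.6% in cluster 5 and 19.4% and 20.2% in cluster 12.

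The order turned for the licensing factor. CDC6 was found in 6.39% and 6.81% of the cells of cluster 4, 16.3% and 18.0% of cluster 5 and 1.33% and 0.673% of cluster 12. CCNE2 was found in 7.18% and 6.09%, 10.6% and 10.6% and 5.33% and 6.40%, and the intervals of clusters 4 and 12 overlapped in each library. MCM5 was found in 73.7% and 73.2% of cluster 4 and 74.8% and 76.2% of cluster 5, and PCNA in 90.8% and 88.2% and 78.9% and 82.1%, all well above 21.7% and 18.2% and 24.0% and 24.9% in cluster 12. Within cluster 5, 283 and 263 thinned cells held a TOP2A UMI, and of these 29.3% and 29.7% also held a CCNB1 UMI, against 22.7% and 22.5% of the cells without TOP2A. Within cluster 4 the same shares were 80.4% and 80.7% with TOP2A and 91.2% and 88.6% without, over 57 and 70 cells without it.

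**Figure D4:**
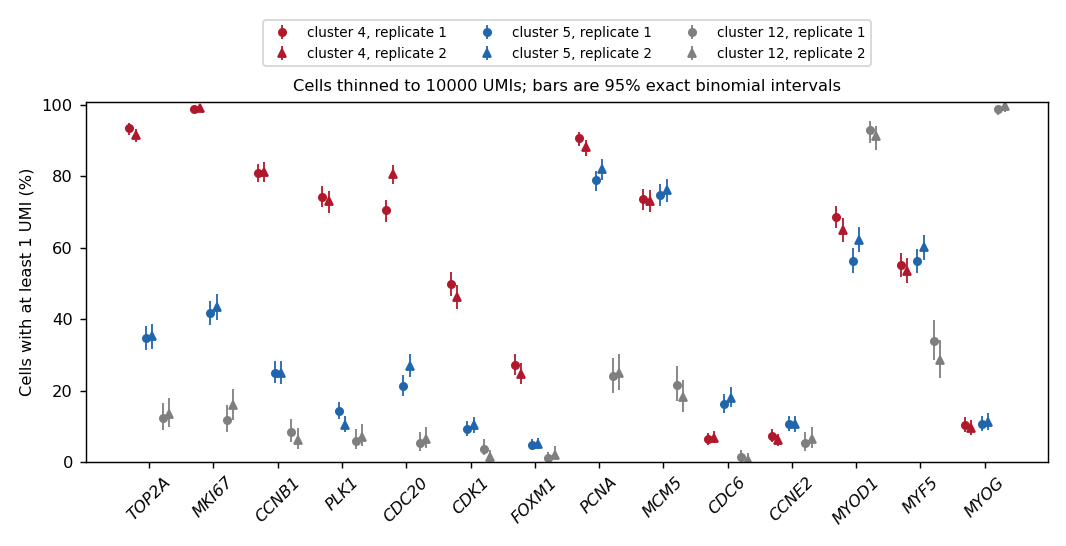
The share of thinned cells with at least 1 UMI of each gene is plotted for cluster 4 (red), cluster 5 (blue) and cluster 12 (grey), with circles for replicate 1, triangles for replicate 2 and bars for 95% exact binomial intervals. TOP2A, MKI67, CCNB1 and PLK1 fall from cluster 4 to 5 to 12, MCM5 is level between clusters 4 and 5, CDC6 is highest in cluster 5, and MYOG is near 100% in cluster 12.

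Of 21 tested myogenic regulators 5 were higher and 1 lower, with a median of 0.15, and with 8 and 2 called under the block, 3 and 0 with DESeq2 and none without replicate 1 or without replicate 2. Of all genes tested 9.16% were higher and 7.28% lower, and the 1 lower regulator was near that share. MYOD1, which commits cells to the myoblast fate, was at 2.71 and 2.72 UMIs per 10000 in cluster 4 and 1.91 and 1.93 in cluster 5, close in the libraries of each cluster and apart between them, with a log2 fold change of 0.47 ± 0.04 (adjusted p = 4.38e-04, edgeR). The change was 0.43 without replicate 1 and 0.43 without replicate 2, in fits whose spread and TMM factors drew on other clusters. Within replicates 1 and 2 taken singly, the log2 ratio of the MYOD1 levels was 0.50 and 0.49. MYF5, the related early factor, was at 1.12 and 1.05 UMIs per 10000 in cluster 4 and 1.21 and 1.26 in cluster 5, a log2 fold change of -0.22 ± 0.06 (adjusted p = 0.041), which became -0.33 without replicate 1 (adjusted p = 0.2) and -0.19 without replicate 2 (adjusted p = 0.53) and was also not called by DESeq2 (adjusted p = 0.08). ID3, an inhibitor of these factors, rose by 0.28, not called without replicate 1 or 2 (adjusted p = 0.12 and 0.2). MYOG, the differentiation factor, was at 0.139 and 0.131 UMIs per 10000 in cluster 4 and 0.122 and 0.117 in cluster 5 (log2 fold change 0.15 ± 0.10, adjusted p = 0.34) and DES, the muscle intermediate filament, at 1.27 and 1.27 UMIs per 10000 in cluster 4 and 1.15 and 1.29 in cluster 5 (log2 fold change 0.03 ± 0.06, adjusted p = 0.76).

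The satellite cell markers PAX7 and PAX3 were rare in both clusters. PAX7 had 23 and 16 UMIs in replicates 1 and 2 of cluster 4 and 9 and 6 in cluster 5, a log2 fold change of 0.87 ± 0.41 that did not pass (adjusted p = 0.2). PAX3 had 27 and 23 UMIs in cluster 4 and 22 and 31 in cluster 5, a log2 fold change of -0.59 ± 0.30 that did not pass either (adjusted p = 0.24). In thinned cells PAX7 was found in 1.71% and 0.717% of cluster 4 and 0.859% and 0.535% of cluster 5, and in 0 of 300 and 0 of 297 cells of cluster 12, which allows a share of up to 1% and 1.01%. PAX3 was found in 1.37% and 1.19%, 1.6% and 2.27% and, in cluster 12, 0.333% and 0.337%. No difference in either gene was called between the clusters, also under the block (adjusted p = 0.097 for PAX7 and 0.13 for PAX3).

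Surface and niche receptors of satellite cells had 6 genes higher and 2 lower of 21 tested, with a median of 0.03 and 8 and 4 under the block, and with 0 and 1 called without replicate 1 and 3 and 1 without replicate 2. FGFR4, a receptor for fibroblast growth factors, was at 0.559 and 0.572 UMIs per 10000 in cluster 4 and 0.339 and 0.411 in cluster 5, a log2 fold change of 0.57 ± 0.09, which became 0.42 without replicate 1 (adjusted p = 0.1) and 0.65 without replicate 2 (adjusted p = 0.0061). NCAM1, an adhesion molecule, was at 3.60 and 3.54 UMIs per 10000 in cluster 4 and 4.04 and 4.23 in cluster 5, a log2 fold change of -0.24 that became -0.31 without replicate 1 (adjusted p = 0.048) and -0.24 without replicate 2 (adjusted p = 0.15). HEYL, a Notch target, had a log2 fold change of 0.57, and was 0.20 without replicate 1 (adjusted p = 0.55) and 0.87 without replicate 2 (adjusted p = 2.99e-04). Of 18 tested muscle structure genes 3 were higher and 1 lower (2 under the block), counts near the shares of 9.16% and 7.28% among all genes tested. The 2 receptor genes called lower were also near the lower share. ACTC1, cardiac alpha-actin, was at 2.60 and 3.02 UMIs per 10000 in cluster 4 and 1.67 and 1.87 in cluster 5, a log2 fold change of 0.64 ± 0.08, and TPM1 was lower, with a log2 fold change of -0.19 that was -0.19 without replicate 1 (adjusted p = 0.25) and -0.26 without replicate 2 (adjusted p = 0.086). Of these 18 genes only 1 was called higher without replicate 1 and 1 without replicate 2.

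The genes lower in cluster 4 were of several kinds. Several of the largest decreases among genes called at a mean level of at least 1 UMI per 10000 are given here. GJA1, the gap junction protein connexin 43, was at 0.897 and 0.881 UMIs per 10000 in cluster 4 and 1.57 and 1.54 in cluster 5, and MT2A, a metallothionein, at 2.35 and 2.57 UMIs per 10000 in cluster 4 and 4.05 and 4.43 in cluster 5. CTGF, a secreted matricellular protein, was at 2.28 and 2.45 UMIs per 10000 in cluster 4 and 4.07 and 3.90 in cluster 5, a log2 fold change of -0.78 ± 0.05. Others were MSH6, a mismatch repair protein (-0.67), MARCKSL1 (-0.67), RND3 (-0.58), SCAND1 (-0.54), the growth factor FGF7 (-0.53) and GTPBP4, a ribosome assembly factor (-0.51). FGF7 lost its call without replicate 2 (-0.53, adjusted p = 0.069). Among the 10 largest increases were TOP2A, NUSAP1, ASPM, MKI67, CENPF, SGO2, CENPE, CCNB1 and PRC1, from 3.73 down to 2.78, all of them known for mitosis.

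Cholesterol synthesis was the metabolic list with the clearest direction, with none of 21 genes higher and 11 lower, and a median log2 fold change of -0.35 against -0.01 over all genes. No gene of it was higher at an unadjusted p under 0.05 or with DESeq2, 9 were lower with DESeq2, 1 was higher and 13 lower under the block, and 8 and 6 were lower without replicates 1 and 2. HMGCS1, an early enzyme of the pathway, was at 2.21 and 2.04 UMIs per 10000 in cluster 4 and 2.86 and 3.10 in cluster 5, and FDFT1, which commits the pathway to sterols, at 0.491 and 0.467 UMIs per 10000 in cluster 4 and 0.733 and 0.754 in cluster 5, a log2 fold change of -0.66 ± 0.06. SQLE, CYP51A1 and INSIG1 had -0.50, -0.57 and -0.57, and INSIG1 was not called without replicate 2 (adjusted p = 0.1). SREBF2, the regulator of the pathway, had -0.02 (adjusted p = 0.88). All of these are levels per 10000 UMIs. Since cells of cluster 4 held more UMIs, a lower level does not by itself tell whether a cell held fewer UMIs of the gene.

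Calls in the remaining lists are to be read against the 9.16% higher and 7.28% lower among all genes tested. The lower share of each list in this paragraph was above 7.28%. At an unadjusted p under 0.05 in edgeR, glycolysis had 1 gene higher and 9 lower, and heat shock proteins and chaperones had 5 and 10. Immediate early factors had 2 and 5 and YAP targets 1 and 3, against 1823 and 1788 of all 11311 genes tested. Glycolysis had 1 gene higher and 4 lower of 20, with 11 lower under the block and 1 and 0 lower without replicates 1 and 2. Its lower genes were LDHA, PGAM1, ALDOA and ENO1, at -0.21, -0.21, -0.19 and -0.16, with an adjusted p without replicates 1 and 2 of 0.042 and 0.11, 0.054 and 0.1, 0.12 and 0.092 and 0.065 and 0.075. Heat shock proteins and chaperones had 3 higher and 4 lower of 22, with 5 and 14 under the block and 1 and 0 without replicate 1. HSPA5, the chaperone of the endoplasmic reticulum, was lower by a log2 fold change of -0.29, which became -0.30 without replicate 1 (adjusted p = 0.099) and -0.37 without replicate 2 (adjusted p = 0.03). The inducible DNAJB1 and HSPA1A rose by 0.57 and 0.51, of which HSPA1A was not called without replicate 1 or 2 (adjusted p = 0.16 and 0.17). Of 20 immediate early factors 1 was higher and 3 were lower, 2 and 6 under the block, and 0 and 1 without either replicate. DUSP1, a phosphatase of MAP kinases, was at 0.682 and 0.609 UMIs per 10000 in cluster 4 and 1.09 and 0.985 in cluster 5, and MYC at 0.612 and 0.575 UMIs per 10000 in cluster 4 and 0.718 and 0.729 in cluster 5, which was -0.40 without replicate 1 (adjusted p = 0.064) and -0.30 without replicate 2 (adjusted p = 0.18). Of 12 YAP targets 1 was higher and 2 lower (4 lower under the block), namely CTGF and ANKRD1 (-0.23, adjusted p = 0.059 and 0.38 without replicates 1 and 2), and CYR61 was at 4.11 and 4.14 UMIs per 10000 in cluster 4 and 4.14 and 4.13 in cluster 5, a log2 fold change of -0.03.

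Collagens and secreted matrix genes, the products of fibroblast-like cells and of myoblasts in culture, differed little. None of 38 was called in either direction by edgeR or DESeq2, and 4 and 5 were called under the block. At an unadjusted p under 0.05, 5 were higher and 2 lower, against 1823 and 1788 of all 11311 genes tested. COL1A1 was at 47.9 and 49.0 UMIs per 10000 in cluster 4 and 47.8 and 46.7 in cluster 5, and the summed list at 264 ± 5.32 UMIs per 10000 in cluster 4 and 260 ± 2.02 in cluster 5 (SD, n = 2 libraries). Of 78 tested cytosolic ribosomal protein genes 1 was lower and none higher, the median was -0.09, and 73 were lower under the block. Their sum was 2463 ± 1.56 in cluster 4 and 2561 ± 8.18 in cluster 5, a small difference shared by most of the genes. No ribosomal protein gene was higher at an unadjusted p under 0.05 or with DESeq2, and 23 and 2 were lower. Of all 11311 genes tested, 1788 and 420 were lower by these criteria.

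**Figure D5:**
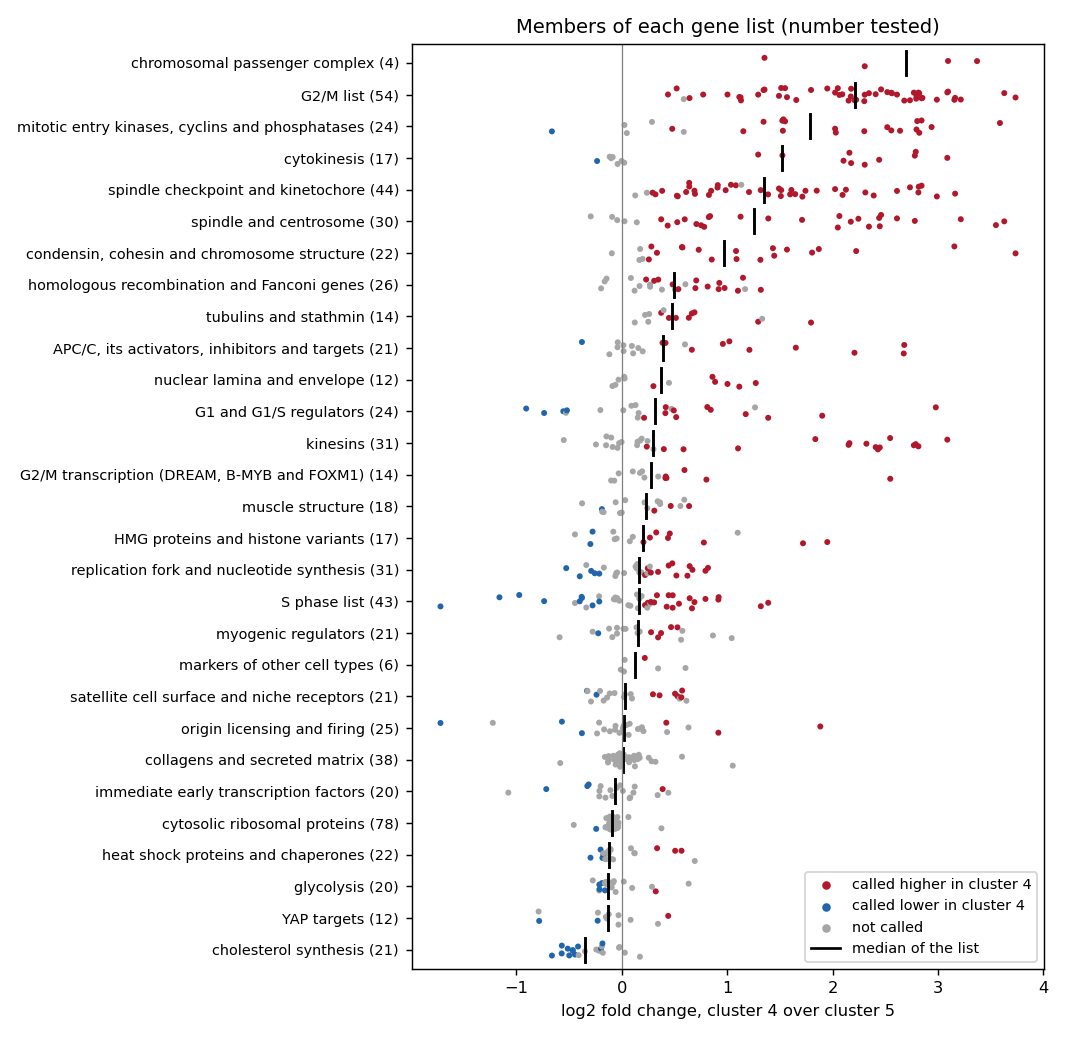
Each row is a gene list with the number of genes tested, and each point a member at its log2 fold change of cluster 4 over cluster 5, in red where called higher, blue where called lower and grey where not called, with a black bar at the median. Medians run from 2.70 for the chromosomal passenger complex and 2.22 for the G2/M list to -0.35 for cholesterol synthesis, and the collagens lie around 0.

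Because cells of cluster 4 held more UMIs, a lower level per 10000 was often not a lower number of UMIs per cell. The mean cell held 19318 and 19951 UMIs in cluster 4 and 14826 and 15586 in cluster 5. Counted per cell, 9680 of the genes tested (85.6%) had more UMIs in cluster 4 in both libraries, including 1034 of the 1036 called higher. Of the 823 genes called lower per 10000, 255 also had fewer UMIs per cell in both libraries, 436 had more and 132 differed in direction between libraries. CDC6 fell also per cell, with 0.121 and 0.144 UMIs in cluster 4 and 0.324 and 0.339 in cluster 5, as did CTGF, with 4.40 and 4.88 against 6.03 and 6.08. MYF5 was above, with 2.16 and 2.09 against 1.80 and 1.97. For MYOD1 the difference widened to 5.23 and 5.42 against 2.84 and 3.01. These per-cell values were not tested.

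Of 15 markers of other cell types, most were rare and ACTA2 was abundant. The fibroblast markers COL1A1 and S100A4 were not among these 15, and COL1A1, given with the collagens above, was more abundant than ACTA2. Of these 15 genes 6 passed the filter, 1 of which was higher, and 5 (ADIPOQ, LEP, FOXD3, SOX10 and PECAM1, markers of adipocytes, neural crest or glia and endothelium) had no UMI in either cluster. The leukocyte markers PTPRC and CD68 had 1 and 98 UMIs in the clusters together, and the endothelial CDH5 had 7. Of the pericyte markers MCAM had 10 UMIs and NOTCH3 had 3018. NOTCH3 was at 0.543 and 0.484 UMIs per 10000 in cluster 4 and 0.485 and 0.507 in cluster 5 (adjusted p = 0.88, edgeR). PDGFRA, which marks fibro-adipogenic progenitors, was at 0.215 and 0.229 UMIs per 10000 in cluster 4 and 0.230 and 0.208 in cluster 5, a log2 fold change of -0.01 ± 0.09 (adjusted p = 0.97). ACTA2, smooth muscle actin, was at 8.43 and 8.50 UMIs per 10000 in cluster 4 and 7.16 and 7.11 in cluster 5, a log2 fold change of 0.22 ± 0.04 (adjusted p = 0.0098), which became 0.20 without replicate 1 (adjusted p = 0.43) and 0.17 without replicate 2 (adjusted p = 0.52). Summed over the 15 genes the levels were 9.28 and 9.32 in cluster 4 and 7.97 and 7.91 in cluster 5, nearly all of it ACTA2, and the part of this difference in the results above was not tested.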

How the data were processed

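Libraries were prepared with a droplet kit that counts the 3′ ends of RNA. Per the study's methods the authors aligned reads to ARS-UCD1.2 with Cell Ranger 3.0.2, combined both libraries at equal mapped depth, and clustered and merged cells by graph-based clustering. The deposited matrix holds whole UMI counts of 21867 genes in 19096 cells of the libraries so combined. A second deposited table holds other values, the authors' average of each of 16816 genes in each of 15 clusters, beside their own log2 fold changes and p-values, which were not used. Cells were assigned to clusters from these averages, which are sums of UMI counts over a cluster scaled to a common total. The averages rebuilt from the assigned cells differed in 0 of 252240 gene and cluster pairs.

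Counts were summed per library and cluster and tested with edgeR 4.0.16 in R 4.3.3 (TMM factors, low count filter by filterByExpr, quasi-likelihood F test, Benjamini-Hochberg adjustment over 11311 genes), and alternatively with DESeq2 1.42.0. The standard error of a log2 fold change was derived from this test, as its absolute value divided by the square root of F. TMM factors lay between 0.9887 and 1.015, and plain totals shifted the median log2 fold change by 0.0266. The replicate number marks a library made from the same cells in both clusters. The library log2 ratios of the clusters correlated with r = 0.5012 over the 9814 genes that had 20 UMIs or more in every sum, so the library pairs the sums. The main fit left this pairing out, and its standard errors and adjusted p-values include library shifts shared by both clusters. All 1859 genes that it called were also called under the block, whereas a gene that it did not call may be called there. The scripts were tested on simulated data, in which 200 genes were changed 1.5-fold or 3-fold. Of these, 110 (55%) and 182 (91%) were called, with 10 and 17 false calls among the other genes. A gene not called here may therefore still differ, in some cases 3-fold. The simulated counts had no library effect and only 200 changed genes, so these rates need not hold for the real counts. Doublets were scored with Scrublet (scanpy 1.11.5). Its automatic thresholds marked 1 cell, so a score above 0.245, chosen after seeing the data, was used, which marked 1491 cells (7.81%), and these were kept except in an alternative. Intervals are 95% exact binomial intervals that, like the limit of 3 counts at a count of 0, cover counting error only, as UMIs in a cell are not independent.

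The clusters and the 29 gene lists were chosen with earlier results of these data known. Genes were named from a panel, from the 10 largest called log2 fold changes in each direction with a mean level of at least 1 UMI per 10000, and from the 2 largest and 2 smallest called members of each list, 130 genes in all. Other list members are named where they complete a complex or a pathway, chosen after their values were seen. A symbol carried by several Ensembl genes counts once for each. Genes with near-identical copies, such as tubulins, histones and ribosomal protein genes, may have lost reads in counting, since per the methods only uniquely mapped reads were used. A planned search for promoter motifs was not run, and no genome positions are given, because no annotation of this build was used here. Results for some genes are not reported here.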

Additional observations from a re-analysis of the deposited data

How the results depend on the processing

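The 53 of 54 G2/M genes called higher kept that count within 1.5 times under all 10 alternatives. The count of all genes called was 1859 and moved with the choice of test, to 1019 with DESeq2 (599 higher, 420 lower) and to 3979 with the library as a replicate block (1899 higher, 2080 lower), the pairing being that of the libraries. It lay between 636 and 668 with 1 replicate left out (415 to 421 higher, 221 to 247 lower), where a lone sum was assumed to vary like those of the other clusters. Genes called lower fell from 823 to 425 without the filter on low counts and to 541 when cells were assigned with one random part of their UMIs and tested on the other. The share of calls that were higher was 55.7%, and it was 64.0% with plain totals, 66.9% without the filter, 47.7% with the block and 45.3% with all 15 clusters in the fit. In the S phase list 9 to 11 genes were higher and 3 to 7 lower with 1 replicate left out. Without doublets 1134 and 819 genes were higher and lower, and with cells thinned to 10000 UMIs 840 and 608. The cause of these shifts was not tested.

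Over the 130 named genes and these alternatives 1119 values kept their direction and side of the threshold, 168 lost the call, 2 gained it and 6 changed sign, all 6 in genes not called. These were DES, at -0.0021 with all 15 clusters and between -0.0763 and 0.0755 with a replicate left out, MYOG, at -0.0144 without doublets and -0.0808 with thinned cells, PAX3, at 0.1623 after the split of UMIs, and MCM5, between -0.1944 and 0.0072 with a replicate left out. PAX7, PAX3, CDT1 and MAD2L1 rest on at most 53 UMIs each in a cluster.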

Other observations

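Some genes differed more between the libraries than between the clusters. Of 8399 tested genes with a mean level of at least 0.05 UMIs per 10000, 102 differed at least 1.5-fold between replicates in the same direction in both clusters, and 97 of them were higher in replicate 2. Of these 102 genes 1 was called between the clusters, against 1859 of all 11311 genes tested. With the library as a block 26 were called, against 3979. The genes were picked for their library difference, which the main fit counts as spread. Few calls in that fit follow from this choice and say nothing about the clusters. Examples are TUBB (2.18 and 2.21 times higher in replicate 2 within clusters 4 and 5) and LMNA (1.56 and 1.68), both chosen after their values were seen. The same libraries were made from the same cells, and for these genes the level in a cluster depends on the library.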
